A study of Mus musculus with 29 samples.

Results

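The transporters described here are 9 genes of the 25746 counted, followed across all 8 groups of the study. They were taken by symbol: the astrocytic glutamate transporters Slc1a2 and Slc1a3, the GABA transporter Slc6a11, the vesicular transporters Slc17a7, Slc17a6 and Slc32a1, the chloride cotransporters Slc12a5 and Slc12a2, and the cystine/glutamate exchanger Slc7a11. The rule goes by symbol and not by measured values, but the members were chosen with earlier results of these data known. All 9 passed the filter on low counts. RNA came from brain tissue of 29 mice at 3 months of age. Stroke was photothrombotic: light through the intact skull activated a circulating dye and closed vessels of the right cortex, and tissue was taken at 21 dpi (days post injury).

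Non-stroked samples came from 4 wildtype (WT) mice, 3 Rag2-/- mice and 4 NSG mice, and stroked samples from 4 WT, 3 Rag2-/- and 3 NSG mice. A further 3 stroked WT mice received tacrolimus, a calcineurin inhibitor, by subcutaneous pump from day 0 (WT-Tacr acute), and 5 received it from day 7 (WT-Tacr delayed). Rag2-/- mice make no mature T and B cells but keep NK and myeloid cells, and NSG mice carry changes in Prkdc and Il2rg on a NOD background and also lack NK cells. Strain and immune defect therefore cannot be told apart in NSG mice. The methods name contralesional tissue as control while the results speak of naïve mice, and they are termed non-stroked in what follows. The 4 non-stroked WT mice are the only comparison for WT, WT-Tacr acute and WT-Tacr delayed alike, none of them had tacrolimus, and the 3 comparisons share them. Titles put the samples in 2 cohorts: Imm2 holds 20, among them every non-stroked sample, and TF holds 9, among them all 5 WT-Tacr delayed mice. Total counts ran from 17789044 to 43403413 per sample, with medians of 37223696 in Imm2 and 23155303 in TF.

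Glutamate released at synapses is cleared mainly by astrocytes through GLT-1 (Slc1a2) and GLAST (Slc1a3), while GAT-3 (Slc6a11) takes up GABA. Neurons load glutamate into vesicles with VGLUT1 (Slc17a7), the form of most cortical excitatory neurons, or VGLUT2 (Slc17a6), which is abundant in thalamus and other subcortical nuclei, and load GABA with VGAT (Slc32a1). KCC2 (Slc12a5) extrudes chloride from neurons and NKCC1 (Slc12a2) brings it into cells, so that the pair sets whether GABA inhibits. System xc- (xCT, Slc7a11) exports glutamate in exchange for cystine, the precursor of glutathione.

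Slc12a5, Slc1a3 and Slc17a6 were each called in at least 3 of the 5 stroke comparisons, and the 250 bases before their start sites are shown because the results turn on these genes. The sequences are from RefSeq on GRCm38.p6, read 5′ to 3′ on the gene's strand.
Slc12a5 (chr2:164967738-164967987, plus strand): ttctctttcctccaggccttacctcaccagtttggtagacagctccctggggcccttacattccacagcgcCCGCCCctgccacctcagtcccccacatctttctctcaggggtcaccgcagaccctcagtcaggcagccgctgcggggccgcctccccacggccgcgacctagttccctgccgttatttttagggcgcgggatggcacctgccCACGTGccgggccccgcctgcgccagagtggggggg
Slc1a3 (chr15:8710808-8711057, minus strand): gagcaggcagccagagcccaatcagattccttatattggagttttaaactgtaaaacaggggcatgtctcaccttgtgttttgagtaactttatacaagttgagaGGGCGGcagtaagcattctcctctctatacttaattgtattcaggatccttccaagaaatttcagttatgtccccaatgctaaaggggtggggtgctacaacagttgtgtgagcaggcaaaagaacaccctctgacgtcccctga
Slc17a6 (chr7:51621580-51621829, plus strand): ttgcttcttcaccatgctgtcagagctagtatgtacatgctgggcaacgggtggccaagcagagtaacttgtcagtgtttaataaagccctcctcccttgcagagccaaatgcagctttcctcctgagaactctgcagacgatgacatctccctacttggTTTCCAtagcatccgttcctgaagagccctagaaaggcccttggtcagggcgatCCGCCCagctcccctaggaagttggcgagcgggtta
Capitals mark letters that match a searched motif on either strand, with none of these matches overlapping. The Slc12a5 window held 1 SP1 motif (GGGCGG) at position -179 from the start and 1 E-box (CACGTG) at -36. The Slc1a3 window held 1 SP1 motif at -145, and the Slc17a6 window held 1 SP1 motif at -36 and 1 NFAT core (TGGAAA) at -90. Among 32851 RefSeq promoter windows of the same length, 32.7% held the SP1 motif, 6.02% the E-box and 18.6% the NFAT core. The motifs EGR (GCGNGGGCG), CRE (TGACGTCA), AP-1 (TGANTCA) and ARE (TGACNNNGC), held by 4.7%, 1.55%, 6.75% and 10.2% of the windows, had no match in these 3. The E-box was added to the search after the Slc12a5 window had been read. Slc12a5 spans chr2:164960802-164999731 and has 2 starts in the RefSeq table, the one shown lying inside the gene. Slc1a3 spans chr15:8634124-8710764 and Slc17a6 chr7:51622006-51671119 in GENCODE M21, whose start for Slc17a6 lies 176 bases from the RefSeq one.

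All 9 transcripts were detected in every sample, with counts from 227 for Slc17a6 to 181284 for Slc1a2. Per kilobase of exon, the median level over the 29 samples was 309 CPM (counts scaled to library size) for Slc1a2, 250 for Slc17a7, 80.4 for Slc12a5, 76.6 for Slc1a3, 32.2 for Slc6a11 and 29.2 for Slc32a1. Slc12a2, Slc17a6 and Slc7a11 were low on the same scale, at 7.48, 4.12 and 3.71 CPM per kilobase. On the plain CPM scale used from here on, the highest sample exceeded the lowest 4.81-fold for Slc17a6, 3.02-fold for Slc32a1 and 1.71-fold for Slc1a3.

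**Figure D1:**
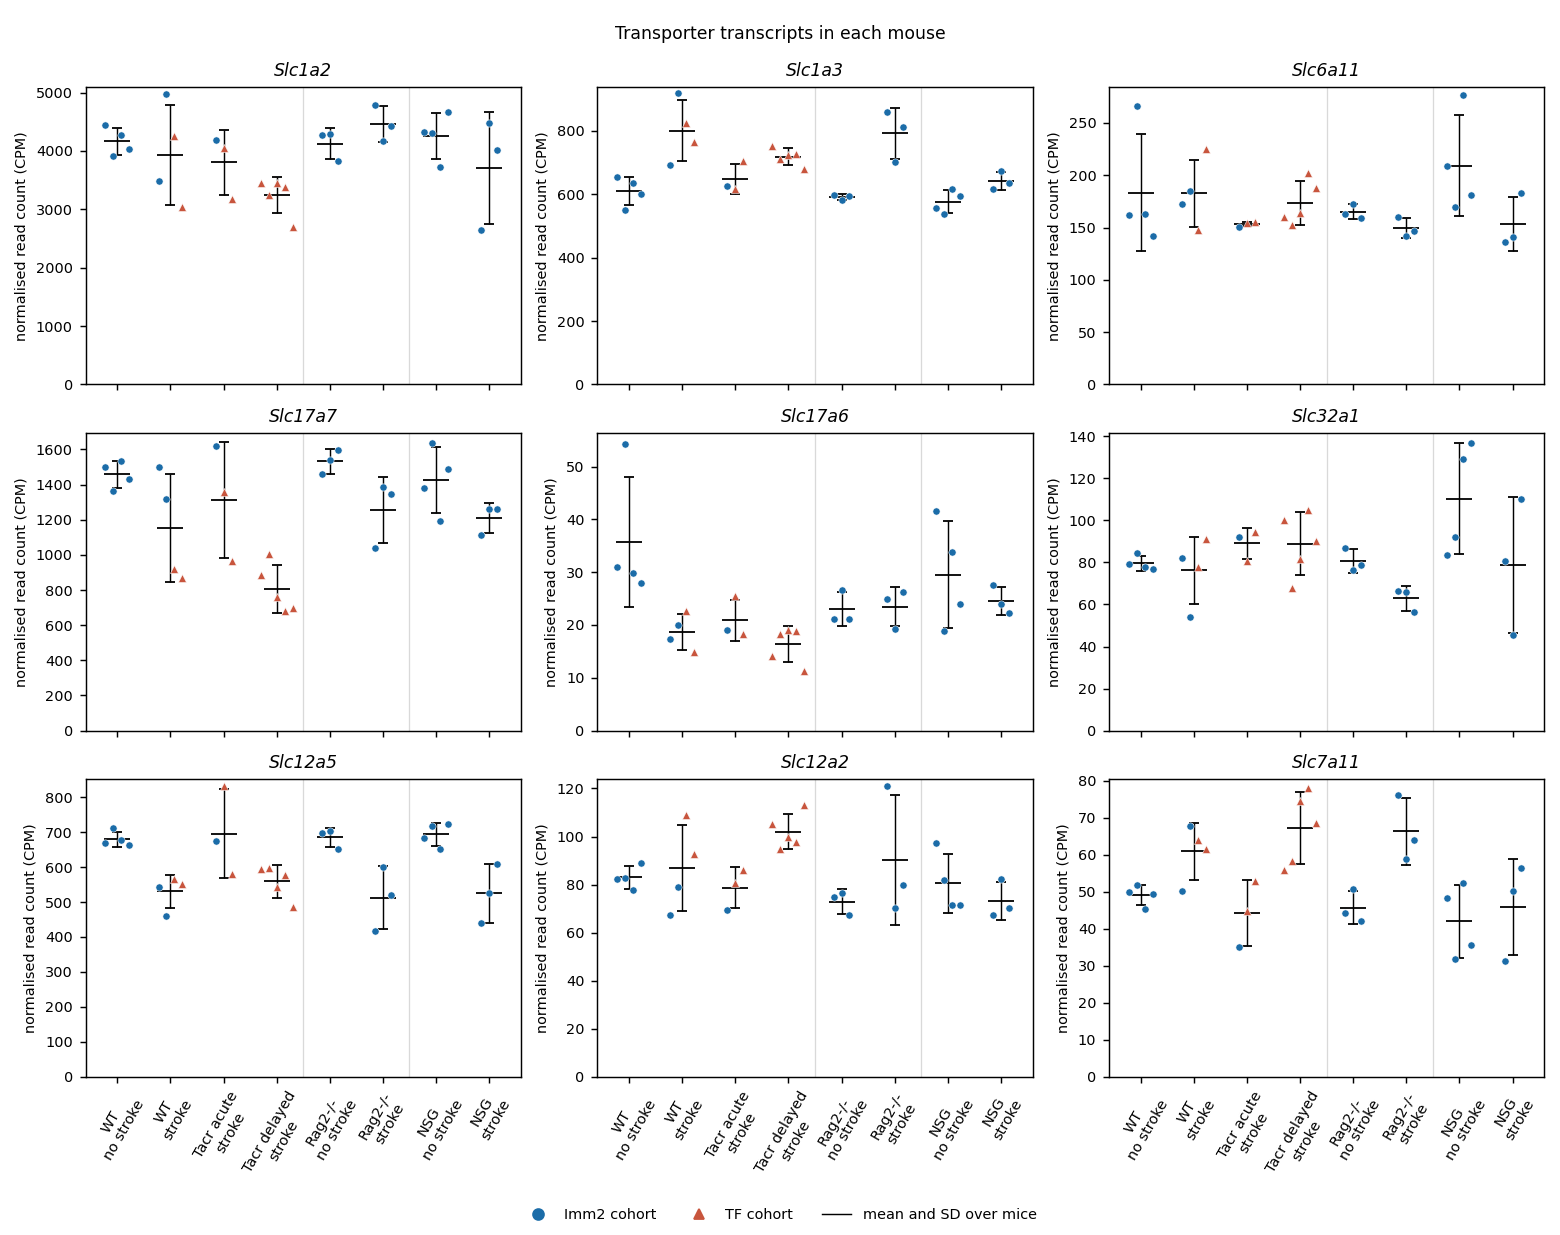
Normalised read counts (CPM, linear axes from 0) of the 9 transporters in each of the 29 mice by group, with circles for the Imm2 cohort, triangles for the TF cohort and black bars for the mean and SD. For Slc12a5, the 11 non-stroked mice lie at 651 to 722 CPM and the 15 stroked mice without acute tacrolimus at 418 to 609 CPM. The 3 WT-Tacr acute mice lie at 581 to 831 CPM. No share of all genes was computed for this pooled grouping.

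Libraries that stand apart are given first. Neuronal, astrocyte and microglial markers were all detected, as in brain tissue. The summed level of 8 microglia and macrophage markers was 198 to 230 CPM in non-stroked WT mice and 559 to 695 CPM in stroked WT mice. It was 283, 260 and 650 CPM in WT-Tacr acute mice 1, 2 and 3, so mice 1 and 2 lay near the non-stroked level. The 6 choroid plexus markers summed to between 4.79 and 1585 CPM over the series, with the highest value in stroked Rag2-/- mouse 1. The transcript B230118H07Rik, which spans the Rag2 locus, had at most 4 counts in any Rag2-/- library and 274 to 1241 counts in WT and NSG libraries.

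Stroke changed 3 of the 9 transporters in WT mice, with Slc1a3 higher and Slc17a6 and Slc12a5 lower (edgeR quasi-likelihood test, Benjamini-Hochberg adjusted p below 0.05). Of all 17031 genes tested, 26.9% were called in this comparison. The count was 1 member in WT-Tacr acute (8.54% of all genes), 6 in WT-Tacr delayed (55.2%), 2 for the Rag2-/- strain (8.23%) and 1 for the NSG strain (21.9%). The members' median log2 fold change was -0.06 for WT, -0.13 for WT-Tacr acute, -0.08 for WT-Tacr delayed, 0.03 for Rag2-/- and -0.24 for NSG mice, beside medians of 0.00 to 0.03 over all genes. When an absolute log2 fold change above 1 was required as well, Slc17a6 in WT-Tacr delayed mice was the 1 member left in these 5 comparisons. The share of all genes under that rule was 7.3% in WT, 2.58% in WT-Tacr acute, 15.5% in WT-Tacr delayed, 4.33% in Rag2-/- and 5.48% in NSG mice. In bulk tissue, fewer cells of a type and less RNA per cell cannot be told apart.

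**Figure D2:**
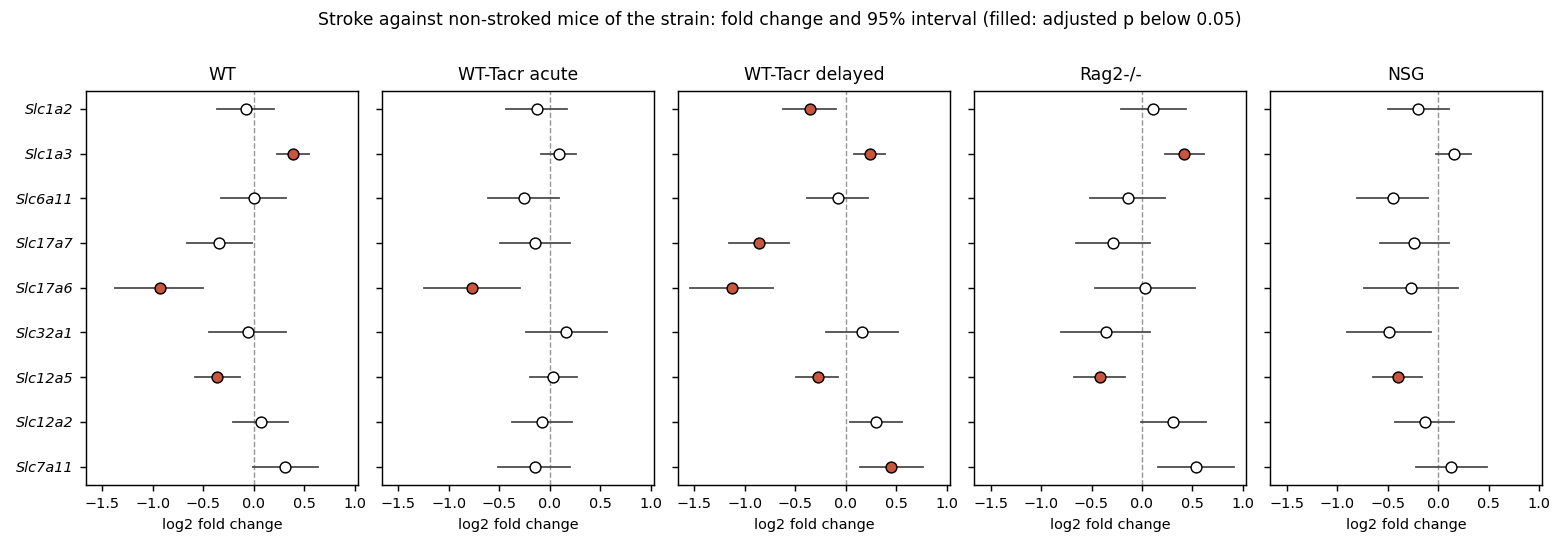
Log2 fold changes (x axis) of the 9 transporters in stroked against non-stroked mice, with 95% intervals as lines and filled points where edgeR's adjusted p was below 0.05. Slc12a5 is filled and left of 0 in 4 of 5 panels, at -0.36, -0.28, -0.42 and -0.40, and stands at 0.03 in WT-Tacr acute.

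Slc12a5, the neuronal chloride extruder, was lower after stroke in every group but WT-Tacr acute. Non-stroked WT mice had 668, 711, 677 and 662 CPM, and stroked WT mice 544, 461, 565 and 552 CPM. In Rag2-/- mice the values were 698, 703 and 653 CPM without stroke and 418, 599 and 521 CPM with it. In NSG mice they were 684, 717, 651 and 722 CPM without stroke and 441, 526 and 609 CPM with it. In none of the 3 strains did stroked and non-stroked mice overlap. Among all genes, 29.8% had no overlap in WT mice, 35.7% in the Rag2-/- strain and 25.0% in the NSG strain. Slc12a5 fell by 0.36 on the log2 scale in WT mice (SE 0.111, edgeR adjusted p = 0.0198). It fell by 0.42 in Rag2-/- mice (SE 0.129, edgeR adjusted p = 0.0431) and by 0.40 in NSG mice (SE 0.121, edgeR adjusted p = 0.02). In percent, it fell by 22.0, 25.1 and 24.2%.

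The 5 WT-Tacr delayed mice had 594, 597, 543, 577 and 485 CPM of Slc12a5, also all below the non-stroked WT mice, where 54.0% of all genes did not overlap. Their log2 fold change was -0.28 (SE 0.105, edgeR adjusted p = 0.0264). The call was lost with upper quartile normalization (-0.21, edgeR adjusted p = 0.087), with the cohort as a covariate (-0.40, edgeR adjusted p = 0.113), without WT-Tacr delayed mouse 5 (-0.23, edgeR adjusted p = 0.0773) and without non-stroked mouse 3 (-0.26, edgeR adjusted p = 0.0652). WT-Tacr acute mice had 676, 831 and 581 CPM. The mouse at 581 CPM lay below the non-stroked range, and the mouse at 831 CPM was the highest of the series. The log2 fold change in WT-Tacr acute was 0.03, with a 95% interval from -0.20 to 0.27. Set directly against untreated stroked WT mice, the 3 WT-Tacr acute mice were higher without overlap, by 0.39 on the log2 scale (SE 0.119), but this did not pass (edgeR adjusted p = 0.311, and 0 of 17031 genes were called). No overlap occurred for 6.29% of all genes in that comparison. Leaving out WT-Tacr acute mouse 3, the one at 581 CPM, gave 0.52 (edgeR adjusted p = 0.0135). The WT-Tacr acute mice kept in that fit were those with microglial markers near the non-stroked level.

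The call in Rag2-/- mice was lost when any mouse but stroked mouse 2 was left out, with values from -0.46 to -0.29. The smallest change, -0.29 (edgeR adjusted p = 0.341), came without stroked mouse 1, the lowest at 418 CPM and the library with the high choroid plexus markers. In NSG mice it stood at -0.30 without stroked mouse 1, the lowest there (edgeR adjusted p = 0.154). In WT mice the Imm2 cohort alone gave -0.43 (edgeR adjusted p = 0.0535), and the value was -0.34 without non-stroked mouse 3 (0.0502) and -0.30 without stroked mouse 2 (edgeR adjusted p = 0.0588).

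In sum, neuronal markers were lower along with Slc12a5 in stroked WT, WT-Tacr delayed, Rag2-/- and NSG mice. The summed level of 8 neuronal markers, among them Rbfox3 and Snap25, was 8415 to 9311 CPM in non-stroked and 5926 to 7609 CPM in stroked WT mice. It was 8289 to 8630 against 6257 to 7629 CPM in Rag2-/- mice, and 7595 to 9045 against 6670 to 7307 CPM in NSG mice. WT-Tacr delayed mice had 5154 to 6176 CPM. WT-Tacr acute mice had 6516 to 8790 CPM, while their Slc12a5 stood at 0.03. Of the 8 markers, 5 were lower in WT, 8 in WT-Tacr delayed, 2 in NSG and 0 in Rag2-/- and WT-Tacr acute mice. Single markers in NSG mice ran from -0.52 for Map2 to 0.07 for Nefl, beside -0.40 for Slc12a5. Relative to these markers, Slc12a5 stood at 77.3 ± 4.09 CPM per 1000 CPM of markers in non-stroked WT mice (SD, n = 4). The ratio was 80.2 ± 15.9 in stroked WT (SD, n = 4) and 97.9 ± 2.93 in WT-Tacr delayed mice (SD, n = 5). In Rag2-/- mice it was 80.7 ± 3.91 without and 73.4 ± 10.1 with stroke, and in NSG mice 84.1 ± 2.94 without and 74.7 ± 11.2 with stroke (SD, n = 3 or 4). On this scale the stroked and non-stroked mice overlapped in all 3 strains. The 5 WT-Tacr delayed mice, at 94.1 to 102, lay above the non-stroked WT mice at 71.7 to 81.5. Untreated stroked WT mice ran from 60.6 to 95.3. WT-Tacr delayed mice are all in TF and non-stroked mice all in Imm2, and the part of cohort was not tested. These ratios are descriptions, and the part of neuronal content in the fall of Slc12a5 was not tested.

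**Figure D3:**
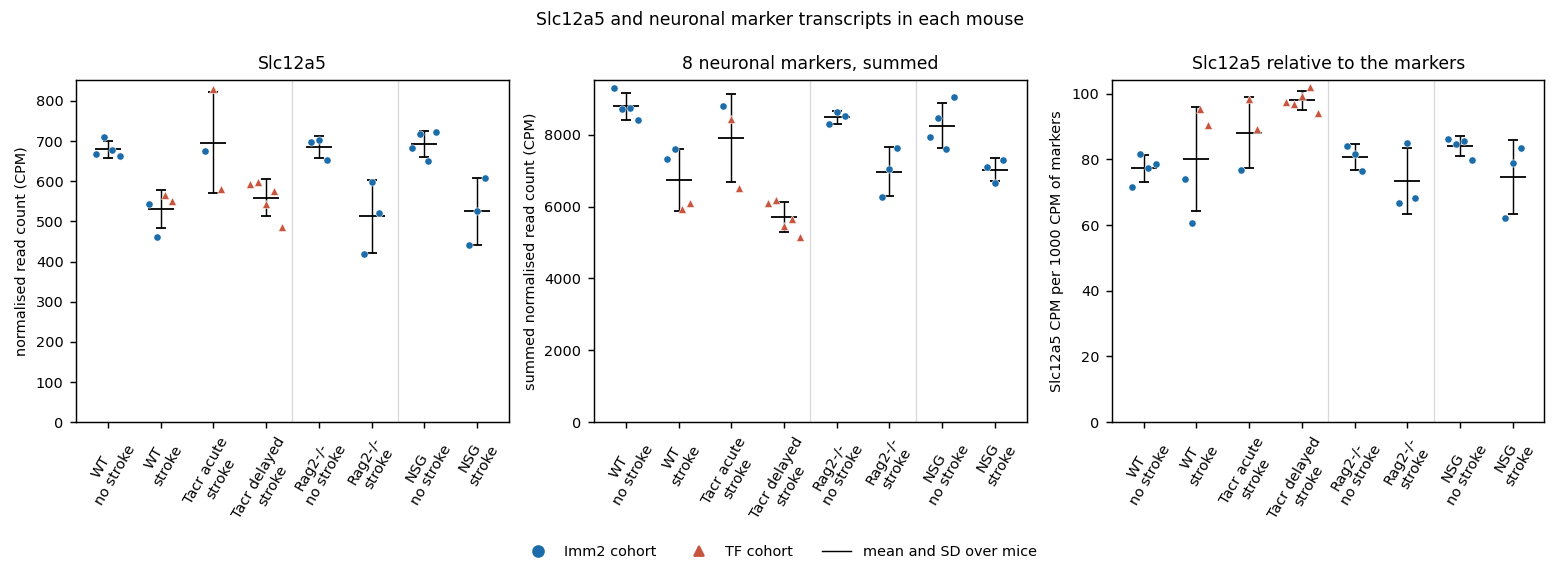
Slc12a5 (CPM), the sum of 8 neuronal markers (CPM) and Slc12a5 per 1000 CPM of these markers in each mouse, with mean and SD as black bars. The first 2 panels are lower after stroke in WT, WT-Tacr delayed, Rag2-/- and NSG mice. In the ratio, untreated stroked and non-stroked mice of a strain overlap. WT-Tacr delayed mice, highest on average at 97.9, lie above the non-stroked WT mice there. Untreated stroked WT mice reach 95.3. WT-Tacr delayed mice are all in TF and non-stroked mice all in Imm2.

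Slc12a2, the chloride importer, was not called in any of the 13 comparisons when all groups were fitted together with TMM normalization. Its group means ran from 72.9 ± 5.04 CPM in non-stroked Rag2-/- (SD, n = 3) to 102 ± 6.99 CPM in WT-Tacr delayed mice (SD, n = 5), with neighbouring groups overlapping at every step. The 5 WT-Tacr delayed mice, at 94.9 to 113 CPM, lay above the non-stroked WT mice at 77.8 to 89.1 CPM. Here Slc12a2 stood at 0.30 (SE 0.134, edgeR adjusted p = 0.0615). It passed with upper quartile normalization (0.37, edgeR adjusted p = 0.0236), with a filter at a mean of 1 CPM (0.32, edgeR adjusted p = 0.0437) and when only the groups compared were fitted (0.31, edgeR adjusted p = 0.000778). With the cohort as a covariate it was -0.08 (edgeR adjusted p = 0.821), and in stroked WT mice the Imm2 samples had 67.5 and 78.8 CPM and the TF samples 109 and 92.8 CPM. Stroked Rag2-/- mouse 1 had 121 CPM, the highest of the series, and the other 2 had 70.2 and 79.8 CPM. WT-Tacr acute mice, at 69.4 to 86.2 CPM, did not overlap WT-Tacr delayed mice, as for 17.8% of all genes. The difference of 0.37 between them missed the threshold (SE 0.147, edgeR adjusted p = 0.071), passing with upper quartile normalization (0.43, edgeR adjusted p = 0.0484).

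Taken as a pair within each mouse, the ratio of Slc12a5 to Slc12a2 was 8.21 ± 0.584 in non-stroked and 6.26 ± 1.24 in stroked WT mice (SD, n = 4 each). Rag2-/- mice stood at 9.4 ± 0.278 and 6.17 ± 2.56, and NSG mice at 8.75 ± 1.27 and 7.20 ± 1.29. WT-Tacr acute mice stood at 8.93 ± 1.91 and WT-Tacr delayed mice at 5.52 ± 0.745. Stroked WT mice, at 5.19 to 8.05, overlapped non-stroked WT mice at 7.43 to 8.70 through mouse 1. WT-Tacr delayed mice, at 4.31 to 6.29, did not overlap them, but are all in TF while the non-stroked mice are all in Imm2. Untreated stroked WT mice stood at 5.19 and 5.95 in TF and at 8.05 and 5.85 in Imm2. The part of cohort was not tested, and no share of other gene pairs was computed.

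Slc1a3, which encodes GLAST, rose after stroke in WT, WT-Tacr delayed and Rag2-/- mice. Non-stroked WT mice had 654, 551, 635 and 601 CPM, and stroked WT mice 692, 920, 826 and 764 CPM. Rag2-/- mice had 599, 581 and 594 CPM without stroke and 861, 702 and 814 CPM with it. No stroked mouse overlapped a non-stroked mouse of its strain in these groups. Among all genes, 29.8% had no overlap in WT, 54.0% in WT-Tacr delayed, 35.7% in Rag2-/- and 25.0% in NSG mice. The same shares apply to every later gene without overlap in these comparisons. Slc1a3 rose by 0.39 on the log2 scale, or 31.2%, in WT mice (SE 0.083, edgeR adjusted p = 0.00136). In Rag2-/- mice it rose by 0.42, or 34.0% (SE 0.0959, edgeR adjusted p = 0.00628). Without stroked Rag2-/- mouse 1 it was 0.36 (edgeR adjusted p = 0.0681). Within the Imm2 cohort alone the WT value was 0.41 (edgeR adjusted p = 0.0264).

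In NSG mice Slc1a3 was 557, 537, 617 and 594 CPM without stroke and 618, 673 and 635 CPM with it. The groups did not overlap but lay close, and the log2 fold change of 0.16 (SE 0.0893) did not pass (edgeR adjusted p = 0.215). The NSG response minus the WT response was -0.24 (SE 0.122, edgeR adjusted p = 0.414), so a difference between the strains was not called. WT-Tacr delayed mice had 680 to 753 CPM, above all non-stroked WT mice, with a log2 fold change of 0.24 (SE 0.0789, edgeR adjusted p = 0.0138). That call was lost with the cohort as a covariate (0.22, edgeR adjusted p = 0.258) and without non-stroked mouse 3 (0.19, edgeR adjusted p = 0.0633). WT-Tacr acute mice had 625, 618 and 704 CPM, within or just above the non-stroked range, at 0.09 (SE 0.0894, edgeR adjusted p = 0.536). Against untreated stroked mice the WT-Tacr acute value was -0.30 (SE 0.0901, edgeR adjusted p = 0.311), and it was -0.35 without mouse 3 (edgeR adjusted p = 0.033). Without mouse 3, the WT-Tacr acute mice left were those with microglial markers near the non-stroked level.

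Slc1a2, which encodes GLT-1 and was the most abundant of the 9, was not called after stroke in WT, WT-Tacr acute, Rag2-/- or NSG mice. Non-stroked WT mice had 4438, 3913, 4277 and 4029 CPM, and stroked WT mice 3486, 4981, 4253 and 3038 CPM. The stroked mice thus spread on both sides of the non-stroked range. In WT mice Slc1a2 stood at -0.08, with a 95% interval from -0.36 to 0.20. In WT-Tacr delayed mice the values were 3459, 3241, 3443, 3379 and 2705 CPM, all below the non-stroked WT mice. Slc1a2 fell there by 0.36 on the log2 scale (SE 0.135, edgeR adjusted p = 0.0266), and with the cohort as a covariate the value was -0.15 (edgeR adjusted p = 0.705). The call was also lost with upper quartile normalization (-0.28, edgeR adjusted p = 0.0658), without WT-Tacr delayed mouse 5 (-0.30, edgeR adjusted p = 0.0765) and without non-stroked mouse 1 (-0.33, 0.0701) or mouse 4 (-0.35, edgeR adjusted p = 0.0557).

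Within each mouse, the ratio of Slc1a2 to Slc1a3 was 6.83 ± 0.183 in non-stroked and 4.89 ± 0.631 in stroked WT mice (SD, n = 4 each), with ranges of 6.71 to 7.10 and 3.98 to 5.41 that did not overlap. Rag2-/- mice went from 6.98 ± 0.484 to 5.64 ± 0.264, also without overlap. No share of other gene pairs was computed for this ratio. NSG mice overlapped, at 7.42 ± 0.925 and 5.76 ± 1.29. WT-Tacr acute mice stood at 6.70, 6.56 and 4.51, and WT-Tacr delayed mice at 3.98 to 4.75. The lowest WT-Tacr acute ratio belonged to mouse 3, whose microglial markers were at the level of untreated stroke.

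**Figure D4:**
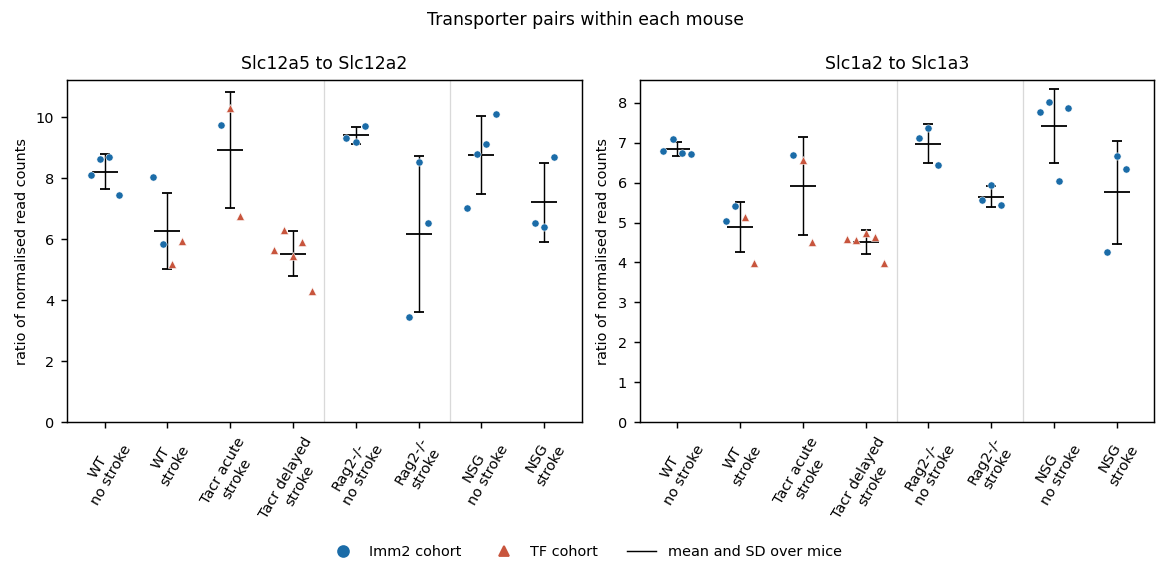
Ratios of normalised read counts within each mouse for Slc12a5 to Slc12a2 and for Slc1a2 to Slc1a3, with circles for Imm2, triangles for TF and black bars for mean and SD. The mean Slc1a2 to Slc1a3 ratio was 6.83 in non-stroked WT, 4.89 in stroked WT and 4.51 in WT-Tacr delayed mice.

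Of 9 astrocyte markers, among them Gfap, Vim, Aqp4 and Aldh1l1, 7 were higher and 1 lower in both WT and WT-Tacr delayed mice, and 5 were higher in Rag2-/- mice. In WT-Tacr acute mice, where Slc1a3 was not called, 4 were higher and 1 lower, and in NSG mice, where it was not called either, 6 were higher. The marker sum was 1338 to 1598 CPM in non-stroked and 2519 to 2924 CPM in stroked WT mice. Slc1a3 per 1000 CPM of these markers was 416 ± 22.4 in non-stroked and 289 ± 33.1 in stroked WT mice (SD, n = 4 each). It was 398 ± 33.0 and 265 ± 46.0 in Rag2-/- mice, and 373 ± 21.8 and 208 ± 31.8 in NSG mice. The WT and Rag2-/- ranges of this ratio did not overlap between stroked and non-stroked mice, nor did those of NSG mice, at 357 to 405 and 190 to 245. The marker sum includes the reactivity genes Gfap and Vim, with log2 fold changes of 2.77 and 2.90 in WT mice, beside 0.39 for Slc1a3. The other markers stood there at 0.20 (Aldoc) to 0.87 (Gjb6), apart from Sox9 at -0.55. These ratios are descriptions, and the part of Gfap and Vim in their fall was not tested.

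Slc6a11, the GAT-3 transporter, was not called in any comparison by edgeR. Values were 162, 266, 163 and 142 CPM in non-stroked WT mice and 173, 185, 148 and 225 CPM in stroked ones. The 2 groups overlapped, and mouse 3 stood apart among the non-stroked ones. Its log2 fold change was 0.00 (SE 0.164, 95% interval -0.32 to 0.32), and it was 0.23 without non-stroked mouse 3. In NSG mice it was -0.45 (SE 0.178, edgeR adjusted p = 0.0689), from 209, 170, 277 and 181 CPM without stroke to 136, 141 and 183 CPM with it. Without stroked NSG mouse 3 it was -0.61 (edgeR adjusted p = 0.026), and without non-stroked NSG mouse 2 it was -0.54 (edgeR adjusted p = 0.0464). DESeq2 called it at -0.47 (DESeq2 adjusted p = 0.0425).

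Slc17a6, the VGLUT2 gene, was lower in all 3 WT stroke groups. Non-stroked WT mice had 31.0, 54.2, 29.8 and 27.9 CPM, and stroked WT mice 17.3, 20.0, 22.7 and 14.9 CPM. WT-Tacr acute mice had 19.0, 25.4 and 18.3 CPM, and WT-Tacr delayed mice 14.2, 18.3, 19.0, 18.9 and 11.3 CPM. No stroked WT mouse, treated or not, reached the non-stroked WT range, and non-stroked mouse 3 stood far above the other 3. Slc17a6 fell by 0.93 on the log2 scale with stroke alone (SE 0.222, edgeR adjusted p = 0.00358). It fell by 0.77 in WT-Tacr acute (SE 0.242, edgeR adjusted p = 0.0471) and by 1.13 in WT-Tacr delayed mice (SE 0.21, edgeR adjusted p = 0.0001). Of all genes, 19.6% did not overlap in the WT-Tacr acute comparison.

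Without non-stroked WT mouse 3, Slc17a6 stood at -0.66 in WT and -0.85 in WT-Tacr delayed mice, both still called, and at -0.50 in WT-Tacr acute mice (edgeR adjusted p = 0.164). The WT-Tacr acute call was also lost without WT-Tacr acute mouse 1 (-0.73, edgeR adjusted p = 0.0677) or mouse 3 (-0.70, edgeR adjusted p = 0.274), and without non-stroked mouse 1, 4 or 5 (-0.84, -0.85 and -0.88, edgeR adjusted p = 0.0729, 0.0536 and 0.0528). The sum of 6 thalamic markers was 45.1 to 71.7 CPM in non-stroked WT mice, highest in mouse 3, and 70.4 to 162 CPM in stroked WT mice. In non-stroked NSG mice it was highest, at 222 CPM, in mouse 1, which also had the most Slc17a6 of that group. In the other strains Slc17a6 levels overlapped. Rag2-/- mice had 21.2, 26.7 and 21.1 CPM without stroke and 24.9, 19.3 and 26.2 CPM with it, a log2 fold change of 0.03 (SE 0.255). NSG mice had 41.6, 18.9, 33.8 and 23.9 CPM without stroke and 27.5, 24.0 and 22.2 CPM with it, a log2 fold change of -0.27 (SE 0.238, edgeR adjusted p = 0.444).

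The Rag2-/- response of Slc17a6 exceeded the WT response by 0.96 (SE 0.338), with an unadjusted p of 0.00845 in edgeR but an adjusted p of 0.95. The NSG response exceeded it by 0.67 (SE 0.323, edgeR adjusted p = 0.391). Without stroke, Rag2-/- mice were below WT mice without overlap, by 0.64 on the log2 scale, and this did not pass either (SE 0.24, edgeR adjusted p = 1). No overlap held for 9.44% of all genes in that comparison, in which 0.00587% of genes were called.

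Slc17a7, the VGLUT1 gene of cortical excitatory neurons, was lower in WT-Tacr delayed mice. Non-stroked WT mice had 1502, 1362, 1534 and 1434 CPM, and WT-Tacr delayed mice 885, 1003, 762, 678 and 697 CPM. The groups were far apart, with a log2 fold change of -0.86 (SE 0.153, edgeR adjusted p = 6.55e-05), a decrease of 44.8%. In stroked WT mice the Imm2 samples had 1499 and 1319 CPM and the TF samples 922 and 868 CPM. The pooled WT value of -0.34 (SE 0.162) did not pass (edgeR adjusted p = 0.121). Without stroked mouse 1 it was -0.49 (edgeR adjusted p = 0.0272), and within Imm2 alone it was -0.04 (edgeR adjusted p = 0.879). With the cohort as a covariate the WT-Tacr delayed value was -0.27 (edgeR adjusted p = 0.366). Since every WT-Tacr delayed sample is in TF and every non-stroked sample in Imm2, cohort and treatment are separated only through the 7 untreated and WT-Tacr acute stroked mice.

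WT-Tacr acute mice had 1620, 1360 and 964 CPM of Slc17a7, the first in Imm2 and the others in TF. WT-Tacr delayed against WT-Tacr acute mice gave -0.71 (SE 0.165, edgeR adjusted p = 0.0104) though mouse 3 lay within the WT-Tacr delayed range, and within TF alone the value was -0.50 (edgeR adjusted p = 0.159). Without WT-Tacr acute mouse 1 it was -0.54 (edgeR adjusted p = 0.11) and without mouse 2 -0.70 (edgeR adjusted p = 0.0955). In this comparison 2 of 9 members and 20.3% of all genes were called, and 0 members and 5.75% of genes with an absolute log2 fold change above 1. Against untreated stroked mice the WT-Tacr delayed value was -0.52 (SE 0.153, edgeR adjusted p = 0.152), and within TF it was -0.15. It passed without stroked WT mouse 3 (-0.61, edgeR adjusted p = 0.0465) or mouse 4 (-0.63, edgeR adjusted p = 0.029), the 2 TF samples of that group. Rag2-/- mice had 1458, 1543 and 1595 CPM without and 1039, 1384 and 1346 CPM with stroke, without overlap, at -0.29 (SE 0.188, edgeR adjusted p = 0.405). No overlap held for 35.7% of all genes there. NSG mice overlapped at -0.24 (SE 0.176, edgeR adjusted p = 0.35).

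The 8 cortical excitatory markers, among them Tbr1 and Cux2, moved with Slc17a7. They summed to 6958 to 8527 CPM in non-stroked WT and 3131 to 4508 CPM in WT-Tacr delayed mice, and to 7241 and 8677 CPM in the Imm2 and 4731 and 4104 CPM in the TF samples of untreated stroked WT mice. Of the 8, 3 were lower in WT, 8 in WT-Tacr delayed and 0 in the other stroke comparisons. Slc17a7 per 1000 CPM of these markers was 186 ± 8.64 in non-stroked WT (SD, n = 4), 191 ± 27.2 in stroked WT (SD, n = 4) and 207 ± 21.0 in WT-Tacr delayed mice (SD, n = 5). The part of tissue composition in the Slc17a7 difference was not tested.

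Slc32a1, the VGAT gene of inhibitory neurons, was not called in any comparison when all groups were fitted together. It was 76.7 to 84.4 CPM in non-stroked WT mice and 54.0 to 91.3 CPM in stroked WT mice, at -0.06 on the log2 scale (95% interval -0.44 to 0.32). Rag2-/- mice had 87.1, 76.3 and 78.7 CPM without stroke and 66.3, 66.1 and 56.2 CPM with it. These did not overlap, as for 35.7% of all genes, but the value of -0.36 did not pass (SE 0.224, edgeR adjusted p = 0.374). It passed when only the Rag2-/- groups were fitted (-0.35, edgeR adjusted p = 0.0264). NSG mice had 83.4, 92.1, 129 and 137 CPM without stroke and 80.9, 45.4 and 110 CPM with it, at -0.49 (SE 0.21, edgeR adjusted p = 0.096). Without stroked NSG mouse 3 the value was -0.82 (edgeR adjusted p = 0.00749). Striatal markers, whose neurons are GABAergic, ranged from 339 to 2364 CPM in non-stroked and from 128 to 1835 CPM in stroked NSG mice, with the lowest Slc32a1 and the lowest striatal sum both in stroked mouse 2. Of 9 inhibitory neuron markers, 4 were lower in WT-Tacr delayed mice and 0 in the other stroke comparisons.

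Slc7a11, the xCT subunit, was higher in WT-Tacr delayed mice. Its values were 50.0, 51.7, 45.4 and 49.3 CPM in non-stroked WT mice and 55.9, 58.4, 74.5, 78.1 and 68.6 CPM in WT-Tacr delayed mice. All 5 lay above the non-stroked WT mice, with a log2 fold change of 0.45 (SE 0.158, edgeR adjusted p = 0.0189), and with the cohort as a covariate it was 0.21 (edgeR adjusted p = 0.633). The call was lost without non-stroked mouse 4 (0.41, edgeR adjusted p = 0.0527) and without WT-Tacr delayed mouse 4 (0.39, edgeR adjusted p = 0.0517). Stroked WT mice had 50.1, 67.9, 64.1 and 61.5 CPM, overlapping the non-stroked mice through mouse 1, at 0.31 (SE 0.166, edgeR adjusted p = 0.165). Rag2-/- mice had 44.2, 50.7 and 42.2 CPM without stroke and 76.2, 58.8 and 63.9 CPM with it. They did not overlap, as for 35.7% of all genes, yet the value of 0.54 missed the threshold (SE 0.192, edgeR adjusted p = 0.0855). When only the groups compared were fitted, Slc7a11 passed in Rag2-/- (0.55, edgeR adjusted p = 0.00851) and in WT mice (0.30, edgeR adjusted p = 0.0445). NSG mice overlapped, at 0.13 (SE 0.179, edgeR adjusted p = 0.636).

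WT-Tacr acute mice had 35.0, 44.7 and 52.8 CPM of Slc7a11, all below the WT-Tacr delayed mice. WT-Tacr delayed exceeded WT-Tacr acute by 0.60 (SE 0.175, edgeR adjusted p = 0.0195), and 17.8% of all genes did not overlap there. Within TF alone it was 0.49 (edgeR adjusted p = 0.159). Without WT-Tacr acute mouse 1 it was 0.45 (edgeR adjusted p = 0.172), and without mouse 2 it was 0.61 (edgeR adjusted p = 0.0991).

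Without stroke, none of the 9 transporters was called between strains. Of all genes, 9.76% were called for NSG against WT and 6.33% for NSG against Rag2-/- mice. At an unadjusted p under 0.05, 1 member passed in each of the 3 resting comparisons, Slc32a1 in both NSG comparisons and Slc17a6 in Rag2-/- against WT, where 22.9% (NSG against WT), 18.2% (NSG against Rag2-/-) and 2.05% (Rag2-/- against WT) of all genes passed. Groups without overlap were found for 0 members in both NSG comparisons (21.8 and 24.3% of all genes) and for 2 in Rag2-/- against WT, Slc17a6 and Slc12a2. Slc32a1 was higher in NSG than in WT mice by 0.47 (SE 0.193, edgeR adjusted p = 0.129), with overlap, and passed when only these groups were fitted (0.48, edgeR adjusted p = 0.047). The levels of Slc12a5 were close, at 680 ± 21.8 CPM in WT, 684 ± 27.8 CPM in Rag2-/- and 693 ± 32.9 CPM in NSG mice (SD, n = 3 or 4), and NSG differed from WT mice by 0.03 with a 95% interval from -0.19 to 0.25.

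No member was called by edgeR for a response of Rag2-/- or NSG mice that differed from that of WT mice. Of all genes, 0.0% and 0.0294% were called in these tests of the difference. At an unadjusted p under 0.05, 1 member passed in each, Slc17a6, beside 4.19% and 12.7% of all genes. For Slc12a5 the Rag2-/- response minus the WT response was -0.06 (95% interval -0.39 to 0.27) and the NSG response minus the WT response -0.04 (95% interval -0.36 to 0.28). Against untreated stroked mice, 0 members and 0.0% of all genes were called for either tacrolimus group by edgeR, with 3 members at an unadjusted p under 0.05 for WT-Tacr acute (12.7% of all genes) and 2 for WT-Tacr delayed (20.3%). No member was without overlap between WT-Tacr delayed and untreated stroked mice, against 4.23% of all genes. DESeq2 called 1 member, Slc17a7, for WT-Tacr delayed (-0.51, adjusted p = 0.0434).

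Genes of the transmitter cycle around the transporters gave mixed counts. Of all genes, 26.9% were called in WT, 8.54% in WT-Tacr acute, 55.2% in WT-Tacr delayed, 8.23% in Rag2-/- and 21.9% in NSG mice. These shares stand beside the counts of each pathway list below and of each marker list above. The lists were not tested as sets. Of 16 genes of the glutamate and GABA cycle, 4 were higher and 1 lower in WT, 0 changed in WT-Tacr acute, 3 were higher and 4 lower in WT-Tacr delayed, 1 was higher in Rag2-/-, and 2 were higher and 3 lower in NSG mice. Glul, the astrocytic glutamine synthetase, rose in WT (0.34, SE 0.0958, edgeR adjusted p = 0.012), Rag2-/- (0.35, edgeR adjusted p = 0.0479) and NSG mice (0.42, edgeR adjusted p = 0.00539). The sodium-coupled neutral amino acid transporter Slc38a2 rose in WT (0.61, edgeR adjusted p = 0.0319) and WT-Tacr delayed mice (0.81, edgeR adjusted p = 0.00143), as did the mitochondrial glutamate carrier Slc25a18 (0.46 and 0.34). Slc38a5, a glutamine transporter, rose in NSG mice (0.86, edgeR adjusted p = 0.00804) and stood at -0.48 in WT mice (edgeR adjusted p = 0.0962). Abat, the GABA transaminase, fell in NSG mice (-0.43, edgeR adjusted p = 0.0442). The GABA-synthesising enzymes Gad1 and Gad2 did not pass in any stroke comparison, with values from -0.53 to 0.41.

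Among 11 other amino acid transmitter transporters, 1 was higher in WT and 1 in WT-Tacr acute, 4 were higher in WT-Tacr delayed, 0 changed in Rag2-/-, and 1 was higher and 2 lower in NSG mice. Slc1a5, the neutral amino acid exchanger ASCT2, was the one called in WT, at 0.883 to 1.96 CPM in non-stroked and 2.28 to 8.37 CPM in stroked mice. It rose by 1.91 on the log2 scale in WT mice (SE 0.405, edgeR adjusted p = 0.00136), by 1.45 in WT-Tacr acute and by 2.68 in WT-Tacr delayed mice (edgeR adjusted p = 8.35e-06). Slc6a13 (GAT-2), found in meninges and vessels, rose in NSG (0.82, edgeR adjusted p = 0.0334) and WT-Tacr delayed mice (1.13, edgeR adjusted p = 0.000575), and Slc6a12 rose in WT-Tacr delayed mice (1.19, edgeR adjusted p = 0.00339). The taurine transporter Slc6a6 fell in NSG mice (-0.35, edgeR adjusted p = 0.0391) and rose in WT-Tacr delayed mice (0.30, edgeR adjusted p = 0.0186). The neuronal glutamate transporter Slc1a1 (-0.13 to 0.07) and the VGLUT3 gene Slc17a8 (-0.58 to 0.06) did not pass in any stroke comparison.

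Of 19 genes of chloride and cation-chloride regulation, 2 were higher and 3 lower in WT, 1 was higher in WT-Tacr acute, 4 were higher and 5 lower in WT-Tacr delayed, 1 was higher in Rag2-/-, and 1 was higher and 6 lower in NSG mice. Slc12a7 (KCC4) rose in WT (0.96, SE 0.317, edgeR adjusted p = 0.0272) and WT-Tacr delayed mice (1.50, edgeR adjusted p = 0.000275). Wnk3, a kinase that regulates these cotransporters, fell in WT, WT-Tacr delayed and NSG mice, at -0.46, -0.56 and -0.68 (edgeR adjusted p = 0.0103, 0.000437 and 0.00149), and the related Wnk4 rose in WT-Tacr delayed mice (1.11, edgeR adjusted p = 0.00351). The neuronal sodium and bicarbonate exchangers Slc4a8 (-0.46, edgeR adjusted p = 0.0294) and Slc4a10 (-0.46, edgeR adjusted p = 0.0125) fell in NSG mice.

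Of 16 genes of cystine uptake and glutathione, 5 were higher and 2 lower in WT, 3 higher in WT-Tacr acute, 8 higher and 5 lower in WT-Tacr delayed, 4 higher in Rag2-/- and 5 higher in NSG mice. Hmox1, the heme oxygenase of the Nrf2 programme, rose in all 5, from 3.24 to 5.28 CPM in non-stroked to 10.9 to 20.1 CPM in stroked WT mice (1.74, SE 0.287, edgeR adjusted p = 0.000134). The peroxidase gene Gpx1 also rose in all 5, by 0.46 to 0.88. Nfe2l2, which encodes Nrf2, rose by 1.10 to 1.34 in 4 comparisons and stood at 0.28 in WT-Tacr acute (edgeR adjusted p = 0.445). Nqo1, another Nrf2 target, rose in WT (0.90), WT-Tacr delayed (1.20) and Rag2-/- mice (1.19, edgeR adjusted p = 0.00437). Slc3a2, the partner chain of Slc7a11, rose in NSG mice (0.30, SE 0.0721, edgeR adjusted p = 0.00501) and stood at -0.01 in WT mice.

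Of 15 tested vesicle loading genes, 0 were higher, and 3 were lower in WT, 1 in WT-Tacr acute, 5 in WT-Tacr delayed, 0 in Rag2-/- and 2 in NSG mice. Syn1 and Sv2b, proteins of synaptic vesicles, fell in WT (-0.69 and -0.34, edgeR adjusted p = 0.0368 and 0.0349) and WT-Tacr delayed mice (-1.52 and -0.56). The proton pump subunit Atp6v0a1 fell in the same comparisons (-0.43, edgeR adjusted p = 0.00659, and -0.67). The call in WT-Tacr acute was Slc18a2, the monoamine transporter, whose non-stroked WT samples ran from 0.292 to 9.06 CPM with a median of 0.432 CPM.

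The genes most alike to each member, by Pearson's r of log2 CPM over all 29 samples, share libraries, depth and tissue composition with it, so r is a description. For Slc12a5 they were Clstn3 (r = 0.95), Lmtk2 (0.943) and Mapk8ip3 (0.925), and for Slc17a7 Lingo1 (0.97), Lrrc4 (0.962) and Pip5k1c (0.962). For Slc32a1 they were Arpp21 (0.914), Htr1d (0.891) and Dclk3 (0.89). For Slc1a2 they were an ID without a symbol (ENSMUSG00000118491, 0.881), Hapln1 (0.859) and Dennd5a (0.857), and for Slc1a3 Nde1 (0.868) and Ak3 (0.84). For Slc7a11 they were Olfml2a (0.88), Slc30a7 (0.867) and Ddr2 (0.855), and for Slc12a2 Sgms2 (0.885), Zdhhc20 (0.877) and Slc31a1 (0.865). The values were lower for Slc6a11, with Tmem255a (0.799), Slc6a9 (0.794) and Rimkla (0.788), and for Slc17a6, with Adcy8 (0.758), Tmem229a (0.757) and Caprin2 (0.748). Between members, Slc1a3 and Slc12a5 had r = -0.725 over the 29 samples.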

How the data were processed

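The authors deposited raw counts of reads per gene for 29 samples and 25746 Ensembl genes. Per the methods, libraries were polyA-selected and stranded. The aligner, genome build and strand setting of counting are not given in the sources used here. Symbols, positions and exon lengths are from GENCODE M21 (GRCm38).

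Groups came from the labels, and each numbered replicate was taken as 1 mouse, although the numbers of mice in the methods differ from the numbers of labelled samples. For 2 WT-Tacr acute samples the deposited file's name carries another mouse number than the title, and the sample on record was followed. The 17031 genes that passed edgeR 4.0.16's filterByExpr (R 4.3.3) were fitted with TMM normalization and the quasi-likelihood test, in 1 fit of 8 groups and 13 comparisons, and called at a Benjamini-Hochberg adjusted p below 0.05. SE is the absolute log2 fold change divided by the square root of F, and 95% intervals use the normal quantile.

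Members and lists were chosen with earlier results of these data known. Named beside the members are, per pathway list, up to 4 called genes by largest change in WT or NSG mice, Slc3a2, Gad1, Gad2, Glul, Slc1a1 and Slc17a8, and the 3 genes most alike to each member, except a few that are not reported here. Alternatives were other normalizations and filters, DESeq2 1.42.0, cohort as a covariate or alone, only the groups compared, a replicate block and leaving out each sample; TF alone was added after the data were seen. Non-stroked samples numbered alike in 2 strains did not deviate together (r from -0.258 to 0.108), so numbers were not taken as pairs. No 2 libraries agreed within sampling noise.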

Additional observations from a re-analysis of the deposited data

Results flagged for a closer look

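In groups of 4 or 5 mice, a sample was singled out where its gap to the nearest other exceeded Dixon's critical value. Of 36 member and group pairs checked, 3 met this, and chance alone gives about 1 in 20. Slc1a2 was low in WT-Tacr delayed mouse 5, at 2705 CPM against 3241 to 3459 CPM in the other 4. Slc6a11 was high in non-stroked WT mouse 3, at 266 CPM against 142 to 163 CPM. Slc17a6 was high in the same mouse, at 54.2 CPM against 27.9 to 31.0 CPM. The thalamic marker sum of that mouse, 71.7 CPM, was also the highest of the 4. Stroked WT mice reached higher thalamic sums with 14.9 to 22.7 CPM of Slc17a6. The part of dissection in these values was not tested. Without WT-Tacr delayed mouse 5, Slc1a2 stood at -0.30 (edgeR adjusted p = 0.0765) and lost its call.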

How the results depend on the processing

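Of the 1998 values recomputed under alternatives, 1873 kept direction and side of the threshold, 47 lost and 20 gained a call, and 58 changed sign, none of them called. The WT calls of Slc1a3 (0.32 to 0.46) and Slc17a6 (-1.03 to -0.66) held in all 16 alternatives, and that of Slc12a5 (-0.43 to -0.30) in 13. Requiring an absolute log2 fold change above 1 left 0 members in WT, WT-Tacr acute, Rag2-/-, NSG and WT-Tacr delayed against acute, and 1 (Slc17a6) in WT-Tacr delayed. With the cohort as a covariate, 0 members were called in WT-Tacr acute, 1 in WT-Tacr delayed and 1 in WT-Tacr delayed against acute. Imm2 alone gave 0 in WT-Tacr acute, and TF alone 0 in WT-Tacr delayed against acute. Without a filter on low counts, 0 were called in WT-Tacr acute and 1 in Rag2-/-. Fits of only the groups compared gave 0 in WT-Tacr acute, 0 in NSG, 0 in WT-Tacr delayed against acute and 1 in resting NSG against WT. They also gained Slc7a11 in WT, Slc12a2 in WT-Tacr delayed, and Slc32a1 and Slc7a11 in Rag2-/- mice. Upper quartile normalization lost Slc1a2 and Slc12a5 and gained Slc12a2 in WT-Tacr delayed, and gained Slc12a2 in WT-Tacr delayed against acute. DESeq2 gave 2 in NSG, 1 in WT-Tacr delayed against untreated stroke, and 3 in WT-Tacr delayed against acute, with Slc12a5 added (-0.31, DESeq2 adjusted p = 0.0404). The cause of these changes was not tested. Leaving out each sample in turn gave 2 to 4 members in WT, 0 to 1 in WT-Tacr acute, 4 to 6 in WT-Tacr delayed, 0 to 2 in Rag2-/-, 0 to 3 in NSG, 0 to 2 for WT-Tacr acute and 0 to 1 for WT-Tacr delayed against untreated stroke, 0 to 3 for WT-Tacr delayed against acute, and 0 to 0 in the other comparisons. With a replicate block, 0 members were called between non-stroked strains, as without it, and the block changed no call. The sign changed with the cohort as a covariate for Slc1a2 (0.02) and Slc12a2 (-0.14) in WT, Slc1a2 (0.01), Slc17a7 (0.22) and Slc12a5 (-0.04) in WT-Tacr acute, Slc12a2 (-0.08) in WT-Tacr delayed, Slc17a7 (-0.20) in the Rag2-/- response minus the WT response, Slc17a7 (-0.15), Slc12a5 (0.02) and Slc12a2 (0.01) in the NSG response minus the WT response. The sign changed in the Imm2 cohort alone for Slc1a2 (0.03) and Slc12a2 (-0.18) in WT, Slc1a2 (0.02) and Slc17a7 (0.16) in WT-Tacr acute, Slc17a7 (-0.23) and Slc12a5 (0.03) in the Rag2-/- response minus the WT response, Slc17a7 (-0.20), Slc12a5 (0.02) and Slc12a2 (0.03) in the NSG response minus the WT response. Upper quartile normalization changed the sign of Slc1a2 (0.01) in resting Rag2-/- against WT. Leaving out each sample in turn gave values on both sides of 0 for the following. For WT these were Slc1a2 from -0.21 to 0.03, Slc32a1 from -0.16 to 0.08 and Slc12a2 from -0.06 to 0.17. For WT-Tacr acute these were Slc17a7 from -0.35 to 0.02 and Slc12a5 from -0.13 to 0.14. For WT-Tacr delayed these were Slc6a11 from -0.19 to 0.15. For Rag2-/- these were Slc17a6 from -0.06 to 0.15. For NSG these were Slc7a11 from -0.05 to 0.34. For resting NSG against WT these were Slc1a2 from -0.02 to 0.09, Slc17a7 from -0.11 to 0.04 and Slc12a2 from -0.15 to 0.01. For resting Rag2-/- against WT these were Slc1a2 from -0.06 to 0.03, Slc6a11 from -0.26 to 0.08, Slc32a1 from -0.05 to 0.05 and Slc12a5 from -0.02 to 0.04. For resting NSG against Rag2-/- these were Slc1a2 from -0.01 to 0.10 and Slc12a5 from -0.02 to 0.05. For the Rag2-/- response minus the WT response these were Slc1a3 from -0.03 to 0.13, Slc17a7 from -0.06 to 0.21, Slc12a5 from -0.17 to 0.09 and Slc12a2 from -0.01 to 0.41. For the NSG response minus the WT response these were Slc1a2 from -0.26 to 0.09, Slc17a7 from -0.01 to 0.26, Slc12a5 from -0.15 to 0.08 and Slc7a11 from -0.34 to 0.05. For WT-Tacr acute against untreated stroke these were Slc1a2 from -0.16 to 0.08. For WT-Tacr delayed against untreated stroke these were Slc6a11 from -0.17 to 0.04.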
